A study of Mus musculus with 2 samples.

Results

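The genes that carry proteins and RNA between the nucleus and the cytoplasm were followed in T-ALL (T-cell acute lymphoblastic leukemia) cells of the mouse leukemia ALL211. The set held 58 protein-coding genes of the 27179 genes in the count table, chosen by a rule on symbols. They are the Nup genes of the nuclear pore, the Kpna and Kpnb importins, the Ipo and Tnpo import receptors, the Xpo exportins, and a list of named pore and Ran genes such as Ran, Rcc1, Cse1l and Tpr.

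ALL211 carries Vav-tTA, a transactivator under regulatory sequences of the blood cell gene Vav, and TRE-GFP-shIkaros, from which the transactivator drives GFP together with a short hairpin RNA against Ikaros. Doxycycline (Dox) shuts that construct off, and the cell's own Ikaros, a DNA-binding regulator of lymphocyte development encoded by Ikzf1, can return. The Dox library came from GFPmid T-ALL cells sorted from the spleens of leukemic recipient mice given Dox for 3 days. The untreated library came from GFPhigh T-ALL cells sorted from the spleens of leukemic recipients without Dox, and carries the same transgenes. Both libraries come from 1 primary leukemia and bear the same batch date. The design text speaks of 2 mice per condition, the labels give 1 sample per condition, and the sources used here do not say whether RNA was pooled, nor the strain or age of the recipients. Dox, sorting gate and mouse differed together between the libraries and cannot be told apart.

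The Dox library held 16484613 counts and the untreated library 16960042. Ikzf1 was at 1229 CPM (a gene's share of the library's counts, after TMM scaling) in the Dox library and 120.5 CPM in the untreated library, the direction the labels give. Myc, which encodes a transcription factor of cell growth, was at 18.9 CPM in the Dox library and 265.7 CPM in the untreated library. The 10 listed T-cell markers were present in both libraries, each at 225 CPM or more in the Dox library and 133 CPM or more in the untreated library. They summed to 7842 CPM in the Dox library and 6243 CPM in the untreated library, with 8 of 10 genes higher in the Dox library. Summed markers of other cells were higher in the Dox library for macrophages (155.8 against 10.6 CPM, 10 of 10 genes higher), erythroid cells (77.9 against 10.8 CPM, 7 of 7), dendritic cells (47.6 against 1.11 CPM, 7 of 7), neutrophils (7.88 against 4.16 CPM, 4 of 5) and natural killer cells (4.88 against 0.293 CPM, 4 of 4). Stromal markers summed to 39.9 CPM in the Dox library and 87.5 CPM in the untreated library. Of the dendritic list, Batf3, Zbtb46, Clec9a and Siglech had 0 counts in the untreated library. The part of these cells in the results was not tested. In bulk RNA, fewer cells of a type and less RNA per cell cannot be told apart.

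Transport through the nuclear pore is driven by Ran, a small GTPase that is loaded with GTP in the nucleus and hydrolyses it in the cytoplasm. Importins bind cargo in the cytoplasm and release it where they meet Ran-GTP, and exportins bind cargo together with Ran-GTP and release it outside. The pore itself is a ring of nucleoporins around a channel lined with flexible, phenylalanine-rich repeats, with filaments on the cytoplasmic face and a basket on the nuclear face. Growing and dividing lymphoid cells make much use of this machinery, because ribosomal proteins must be imported and new ribosomal subunits, transfer RNAs and messenger RNAs exported.

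Most of the machinery was lower in the Dox library. Of the 58 genes, 56 reached 1 CPM in at least 1 library. The remaining pair, Kpna7, an importin alpha known from oocytes and early embryos, and Nup62cl, an X-linked relative of Nup62, had 0 counts in both libraries, which allows up to 0.183 CPM in the Dox library and 0.176 CPM in the untreated library. Log2 folds are of the Dox library over the untreated library, on log2 CPM with a prior count of 2. Among the 56 genes, 49 had a log2 fold below 0, where 50.7% of all 12125 genes past the same filter did. At least 2-fold lower were 21 of the 56 (background 13.0%), and 0 were at least 2-fold higher (background 13.6%). At a 1.5-fold threshold, 33 were lower (background 24.1%) and 2 were higher (background 23.6%), the exportin gene Xpo6 and the pore gene Nup210l. The median log2 fold was -0.75 for the 56 genes and -0.01 for all genes past the filter.

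Each condition had 1 library, so no difference here has a replicate check or a p-value. The 95% intervals quoted are exact binomial ones for the counts and cover counting error only. Reads without molecular identifiers are not independent molecules. Of the 56 genes, 49 had an interval wholly below a log2 fold of 0 (background 40.0%) and 7 wholly above 0 (background 38.7%). For 18 genes the interval lay wholly beyond 2-fold lower (background 8.38%).

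**Figure D1:**
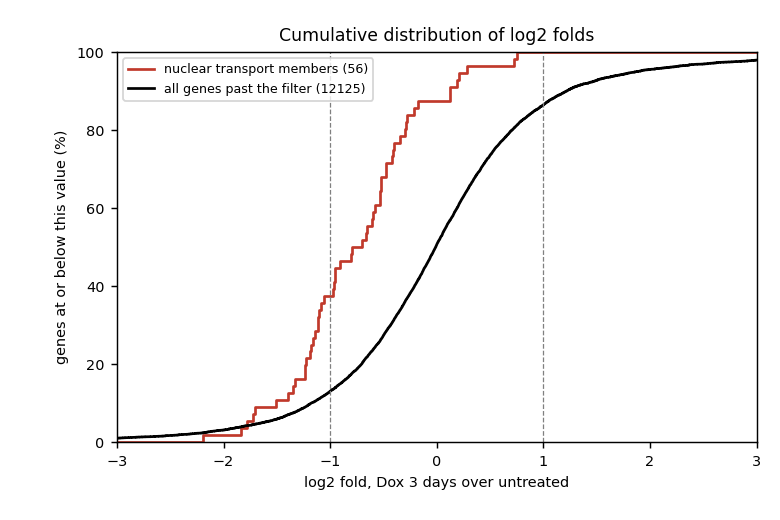
Cumulative share of genes (vertical axis, percent) at or below each log2 fold of the Dox over the untreated library (horizontal axis), for the 56 nuclear transport genes in red and all 12125 genes past the filter in black. Dashed lines mark 2-fold; the red curve lies to the left of the black one through the middle of the range, with medians of -0.75 and -0.01, and ends before the 2-fold higher line.

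The 5 genes of the Ran cycle were lower in the Dox library (background 50.7%). Ranbp1, Ran and Rangap1 were the most abundant of the set per length in both libraries. Ran itself had 4878 counts (298 CPM) in the Dox library and 13341 counts (781.5 CPM) in the untreated library, a log2 fold of -1.39 with an interval of -1.44 to -1.34. Ranbp1, which encodes a cytoplasmic cofactor that helps Ran-GTP be hydrolysed, had 1847 counts in the Dox library and 6897 in the untreated library, 3.58-fold lower (log2 fold -1.84). Another annotated gene, Gm49776, overlaps 20.1% of the exon bases of Ranbp1, and 26.9% of the Ran transcript matches Gm13461, so part of their reads may belong to those genes. Rcc1, which encodes the chromatin-bound exchange factor that loads Ran with GTP, had 1804 counts in the Dox library and 4447 in the untreated library (log2 fold -1.24, interval -1.32 to -1.16). Rangap1, which encodes the GTPase-activating protein on the cytoplasmic side, differed less than these. It had 5706 counts in the Dox library and 8915 in the untreated library, a log2 fold of -0.58 (interval -0.63 to -0.54). In TPM, a level per gene length, Ran stood at 1.12 times Rangap1 in the Dox library and 1.96 times Rangap1 in the untreated library, while Rcc1 stood at 0.408 and 0.644 times Rangap1 in the same order.

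Nutf2, which encodes the carrier that returns Ran to the nucleus, had only 125 counts in the Dox library and 298 in the untreated library (log2 fold -1.18, interval -1.51 to -0.89). Its level is uncertain: 91.6% of its transcript matches Nutf2-ps1 at 97% identity or more. Nutf2-ps1, counted as a gene of its own, had 403 counts in the Dox library and 1229 in the untreated library (log2 fold -1.54). Of the 5 Ran cycle genes, 4 were at least 2-fold lower (background 13.0%) and the median log2 fold was -1.24.

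**Figure D2:**
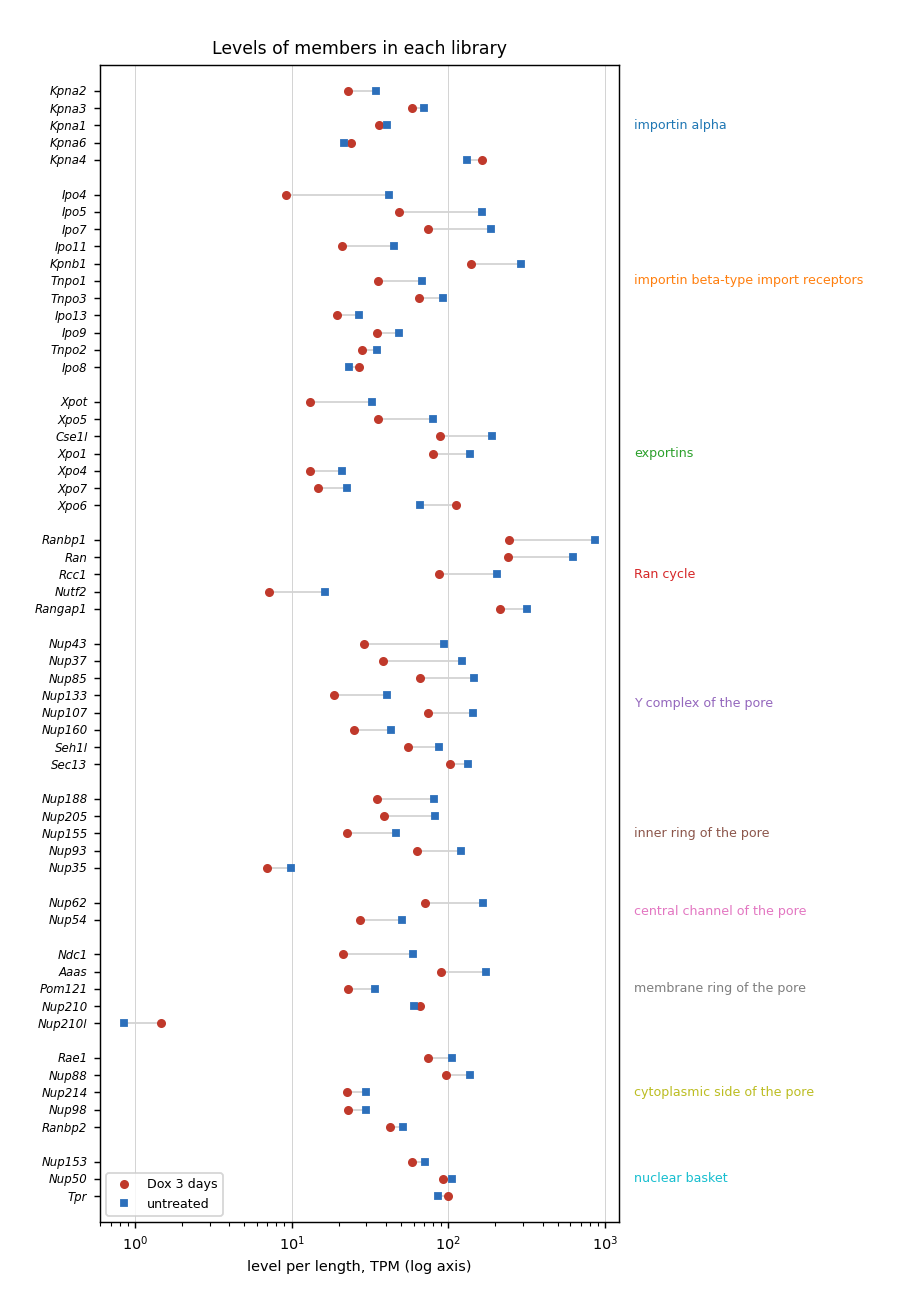
Level per gene length (TPM, log axis) of each of the 56 detected genes, ordered by role and by log2 fold, in the Dox library (red circles) and the untreated library (blue squares). Ranbp1 (245 and 866 TPM) and Ran (241 and 624 TPM) lie farthest to the right in both libraries; Nup210l (1.47 and 0.848 TPM) lies farthest to the left.

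No importin alpha gene reached 2-fold (background 13.0% lower and 13.6% higher), and 2 of the 5 detected had a log2 fold above 0. Of all genes past the filter, 50.7% had a log2 fold below 0. For 5 genes, these counts do not set the class apart from the background. Importin alpha proteins are adaptors that read the classical nuclear localization signal and join it to importin beta. Kpna4 had 5390 counts (329 CPM) in the Dox library and 4602 counts (269.6 CPM) in the untreated library (log2 fold 0.29, interval 0.23 to 0.34). It was the most abundant importin alpha per length, with 53.6% of the summed TPM of the class in the Dox library and 44.2% in the untreated library. Kpna6 had 1202 counts in the Dox library and 1146 in the untreated library (log2 fold 0.13, interval 0.01 to 0.25), or 0.01 with the gene length trend removed. Kpna1 and Kpna3 were slightly lower in the Dox library, with log2 folds of -0.17 and -0.28. Kpna2, the importin alpha associated with proliferating cells, had 415 counts in the Dox library and 659 in the untreated library (log2 fold -0.61, interval -0.79 to -0.43). Because 95.8% of its transcript matches another annotated gene, the level of Kpna2 is uncertain too. The median log2 fold of the class was -0.17. Summed over the class, the level was 305 TPM in the Dox library and 299 TPM in the untreated library.

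Importin beta-type receptors were lower in 10 of 11 cases (background 50.7%), 5 of them at least 2-fold (background 13.0%), with a median log2 fold of -0.95. Kpnb1, the importin beta that works with importin alpha, was the most abundant per length, at 139.5 TPM in the Dox library and 291.5 TPM in the untreated library. Its counts were 7289 in the Dox library and 16097 in the untreated library (log2 fold -1.08, interval -1.12 to -1.04). Set against Kpnb1 on the TPM scale, the summed importin alpha genes stood at 2.19 times its level in the Dox library and 1.02 times in the untreated library.

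The receptors farthest from 0 are known carriers of ribosomal proteins and histones. Ipo4 was the lowest of the whole set, with 296 counts (18.1 CPM) in the Dox library and 1422 counts (83.3 CPM) in the untreated library, 4.61-fold lower (log2 fold -2.20, interval -2.39 to -2.02). A gene annotated across the same locus, Gm49378, overlaps 55.3% of the exon bases of Ipo4, so reads of the pair cannot be told apart. Ipo5 had 1959 counts in the Dox library and 7014 in the untreated library, 3.44-fold lower (log2 fold -1.78). Ipo7, which also forms a carrier of linker histone with importin beta, had 2044 counts in the Dox library and 5423 in the untreated library (log2 fold -1.35, interval -1.42 to -1.27). Ipo11 followed at a log2 fold of -1.11 with an interval that reached -0.99. The transportin genes, whose products import RNA-binding proteins, lay nearer to 0. Tnpo1, with 31.3% of its transcript matched by Gm6493, had a log2 fold of -0.95. Tnpo3, the carrier of serine- and arginine-rich splicing factors, had -0.53. Tnpo2, with 11.7% of its exon bases overlapped by other annotated genes, had -0.34. Ipo9 and Ipo13, which encode further import receptors, had -0.48 each. With the gene length trend removed, Tnpo1 passed 2-fold at -1.07. Ipo8, a close relative of Ipo7, was the exception, with 1271 counts in the Dox library and 1165 in the untreated library (log2 fold 0.19, interval 0.07 to 0.30). Ipo7 was thus 2.55-fold lower in the same library in which Ipo8 was slightly higher.

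Exportin genes were lower except Xpo6 (background 50.7%), with a median log2 fold of -0.81. Xpot, which encodes the exporter of transfer RNA, had 690 counts in the Dox library and 1811 in the untreated library, 2.52-fold lower (log2 fold -1.33, interval -1.46 to -1.21). Xpo5, the exporter of microRNA precursors, had 1168 counts in the Dox library and 2779 in the untreated library (log2 fold -1.19). Cse1l, which encodes the exportin that returns importin alpha to the cytoplasm, had 2836 counts in the Dox library and 6400 in the untreated library (log2 fold -1.11, interval -1.18 to -1.05). The most general exporter, Xpo1, which carries proteins with leucine-rich signals and the ribosomal subunits, had 3648 counts (223 CPM) in the Dox library and 6645 counts (389 CPM) in the untreated library (log2 fold -0.81, interval -0.86 to -0.75). Xpo4 and Xpo7 had log2 folds of -0.70 and -0.65, and Xpo7, whose gene model is long, stood at -1.11 with the gene length trend removed.

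Xpo6, which encodes the exporter of actin bound to profilin, went the other way. It had 4379 counts (267 CPM) in the Dox library and 2759 counts (161.6 CPM) in the untreated library, a log2 fold of 0.73 with an interval of 0.66 to 0.80. Per length, Xpo6 made up 31.2% of the summed exportin TPM in the Dox library, where it was the most abundant exportin, and 12.0% in the untreated library. Relative to Xpo5, its TPM was 3.12 times as high in the Dox library and 0.827 times in the untreated library. Cse1l, by contrast, was the most abundant exportin per length in the untreated library (190.0 TPM) and stood at 89.0 TPM in the Dox library.

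**Figure D3:**
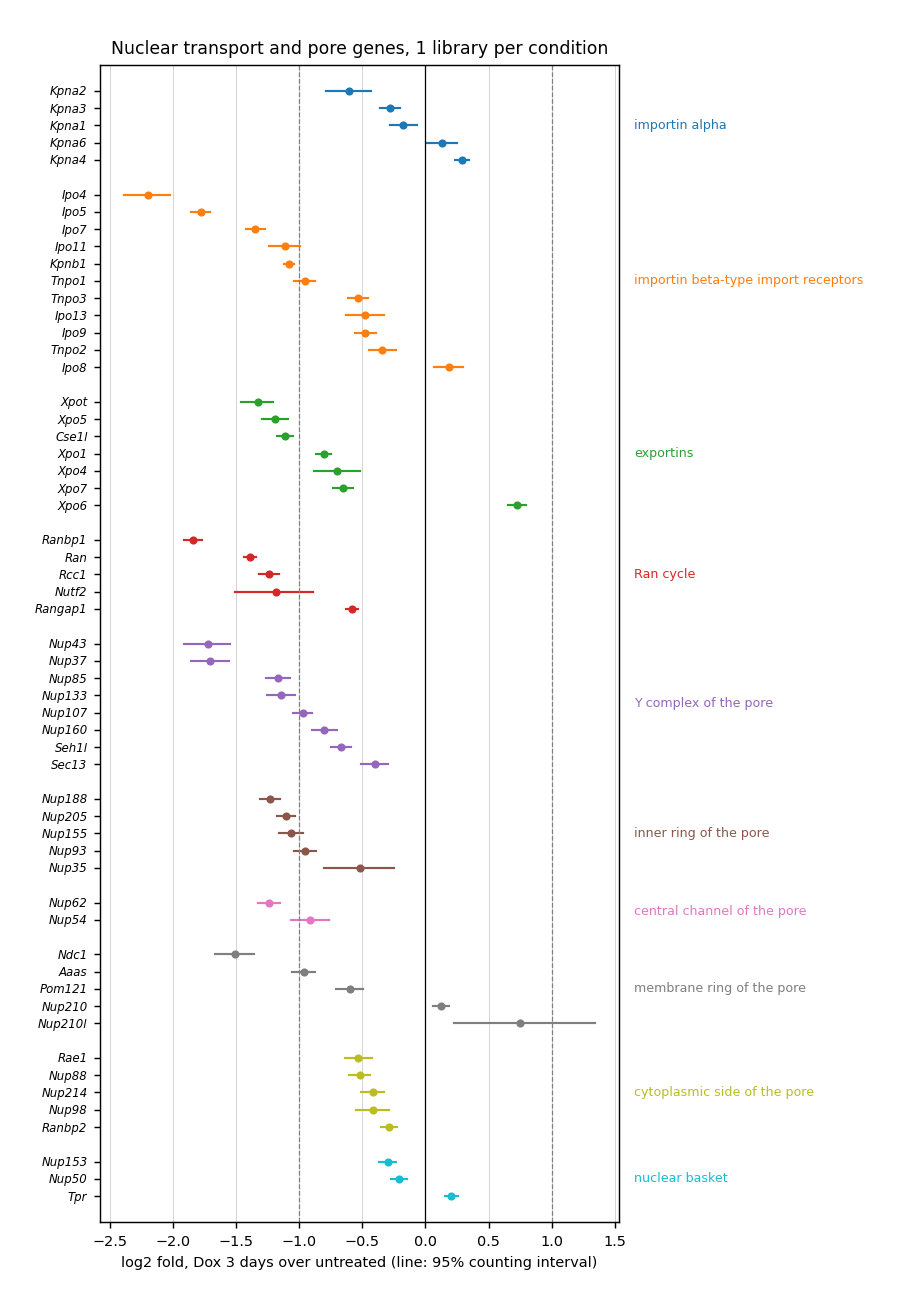
Log2 fold of the Dox over the untreated library for each of the 56 genes (points), with the 95% counting interval (lines), grouped and coloured by role; dashed lines mark 2-fold. Ipo4 lies lowest at -2.20, and Xpo6 at 0.73 and Nup210l at 0.75 lie highest; the cytoplasmic side and the basket of the pore lie between -0.53 and 0.21.

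In the pore, the median log2 fold was near -1 in the scaffold and channel (-1.06 in the Y complex, -1.06 in the inner ring, -1.07 in the channel), -0.60 in the membrane ring, -0.42 on the cytoplasmic side and -0.21 in the basket. These medians rest on few genes (2 for the channel) and on the symbols that the rule caught. Outside the set, Nupl1 of the channel had -0.44 and Nupl2 of the cytoplasmic face had -0.88. The Y complex is the outer scaffold of the pore and also helps rebuild it after mitosis. Its 8 genes were lower in the Dox library (background 50.7%), 4 of them at least 2-fold (background 13.0%), 7 of them by 1.5-fold or more (background 24.1%). The small propeller subunits Nup43 and Nup37 were lowest: Nup43 had 329 counts in the Dox library and 1137 in the untreated library, 3.32-fold lower (log2 fold -1.72). Nup37 had 463 counts in the Dox library and 1575 in the untreated library, 3.26-fold lower (log2 fold -1.70). Nup85 followed at -1.17, Nup133 (10.4% of its exon bases overlapped by other annotated genes) at -1.14, Nup107 at -0.97 and Nup160 at -0.80. The log2 folds nearest to 0 were those of Seh1l and Sec13. Seh1l, shared with the GATOR complex that senses amino acids, had 2019 counts in the Dox library and 3343 in the untreated library (log2 fold -0.67, interval -0.75 to -0.59). Sec13, shared with the COPII coat of secretory vesicles and with GATOR, had 1178 counts in the Dox library and 1623 in the untreated library (log2 fold -0.40, interval -0.51 to -0.29), or -0.22 with the gene length trend removed. Although Y complex proteins are held in fixed proportions in the pore, their transcripts were spread per length, by 5.53-fold between Sec13 and Nup133 in the Dox library and by 3.62-fold between Nup85 and Nup133 in the untreated library.

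The inner ring joins the scaffold to the membrane and the channel, and 3 of its 5 genes were at least 2-fold lower (background 13.0%). Nup188, with 12.4% of its exon bases overlapped by other annotated genes, had 1746 counts in the Dox library and 4270 in the untreated library (log2 fold -1.23, interval -1.31 to -1.15). Its large paralog Nup205 had 2127 counts in the Dox library and 4768 in the untreated library (log2 fold -1.10), and Nup155 had a log2 fold of -1.06 with an interval that reached -0.97. Nup93, the hub of this ring and its most abundant member per length, had 1629 counts in the Dox library and 3294 in the untreated library (log2 fold -0.96). Nup35 had only 178 counts in the Dox library and 267 in the untreated library (log2 fold -0.52, interval -0.81 to -0.25). Its level is uncertain, since 99.2% of its transcript matches another annotated gene, Gm4353.

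Both channel genes of the set were lower (background 50.7%). Nup62, the central repeat-bearing nucleoporin, had 1500 counts in the Dox library and 3684 in the untreated library (log2 fold -1.24, interval -1.32 to -1.15). Nup54, its partner in the channel, had 562 counts in the Dox library and 1104 in the untreated library (log2 fold -0.91), with 53.3% of its transcript matched by Gm15790. The third subunit is listed under the symbol Nupl1 and so fell outside the set. It had 1101 counts in the Dox library and 1560 in the untreated library (log2 fold -0.44).

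Membrane nucleoporins were the most mixed class of the pore. Ndc1, a membrane anchor of the pore, had 483 counts (29.5 CPM) in the Dox library and 1435 counts (84.1 CPM) in the untreated library, 2.85-fold lower (log2 fold -1.51, interval -1.66 to -1.36). Aaas, which encodes ALADIN, a protein tethered to the pore by Ndc1, had 1443 counts in the Dox library and 2936 in the untreated library (log2 fold -0.96). Pom121 had a log2 fold of -0.60, and 11.9% of its exon bases are shared with Nsun5, which had 211 counts in the Dox library and 575 in the untreated library. Nup210, a membrane glycoprotein known from muscle and T-cell differentiation, had 4130 counts (252 CPM) in the Dox library and 3943 counts (231 CPM) in the untreated library (log2 fold 0.13, interval 0.06 to 0.19). Removal of a trend with gene length turned the sign of this small difference, to -0.03. Its testis-associated relative Nup210l had 74 counts in the Dox library and 45 in the untreated library (log2 fold 0.75, interval 0.22 to 1.35).

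On the faces of the pore no gene reached 2-fold, where 13.0% of all genes past the filter were lower and 13.6% higher by that much. With so few genes, that count cannot set the faces apart from this background. The 5 genes of the cytoplasmic side had log2 folds from -0.53 to -0.29. Rae1, an mRNA export factor, had 1147 counts in the Dox library and 1727 in the untreated library (log2 fold -0.53), and Nup88 had -0.52. Nup214, which builds the platform for messenger RNA remodelling, had -0.42, and Nup98, a mobile repeat nucleoporin that occurs in leukemia fusions, -0.41. Ranbp2, the large protein of the cytoplasmic filaments that binds Ran and sumoylated RanGAP1, had 3557 counts in the Dox library and 4534 in the untreated library (log2 fold -0.29, interval -0.35 to -0.23), or -0.55 with the gene length trend removed.

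In the nuclear basket, Nup153 had 3118 counts in the Dox library and 3995 in the untreated library (log2 fold -0.30), and Nup50, which helps release importin alpha, had -0.21. Tpr, the coiled-coil protein that builds the basket, had 6686 counts (408 CPM) in the Dox library and 6043 counts (354 CPM) in the untreated library (log2 fold 0.21, interval 0.16 to 0.26), or 0.03 with the gene length trend removed. Basket genes summed to 251 TPM in the Dox library and 262 TPM in the untreated library, while the inner ring summed to 166 TPM and 339 TPM in the same order. All 28 pore genes together summed to 1385 TPM in the Dox library and 2309 TPM in the untreated library.

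**Figure D4:**
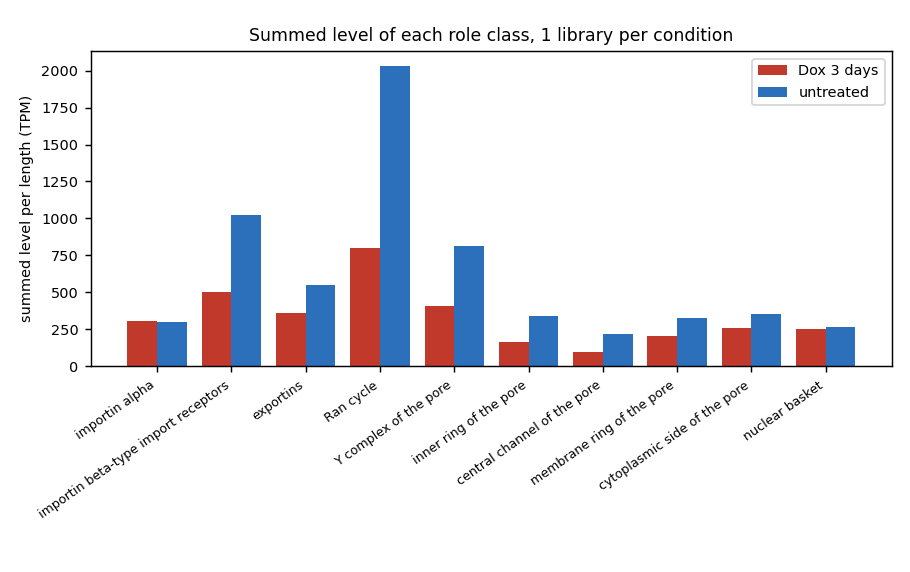
Summed level per gene length (TPM, vertical axis from 0) of the genes of each role class, with the Dox library in red left of the untreated library in blue, 1 library each and no error bars. The Ran cycle shows the widest gap (796 and 2029 TPM), and importin alpha (305 and 299 TPM) and the basket (251 and 262 TPM) are nearly level.

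Promoter sequences of the members were read for motifs of factors linked to this leukemia or to growth, because many members were lower together. RefSeq promoter windows on GRCm38.p6, the patch release of the mm10 build, run from 250 bases before to 50 bases after a start and were present for 47 of the 58 genes. CACGTG, the E-box bound by Myc and Max, was in a window of 9 of the 47 genes (19.1%) and of 8.09% of all 27025 genes in the table, or 11.8% of those past the expression filter. In a window from 100 bases before the start, the shares were 8.51% of the members, 5.003% of all genes and 7.64% of those past the filter, so the gap was smaller there. Of the 18 members that were at least 2-fold lower and had a window, 5 held it, as did 4 of the other 29. The Nrf1 palindrome was in 5 of the 47 (10.6%), against 1.07% of all genes and 2.44% of those past the filter. Its holders were Ran, Nup62, Xpo5, Nup107 and Nup50. From 100 bases before the start, the palindrome was in 3 of the 47 (6.38%), against 0.818% of all genes and 1.87% of those past the filter. TGGGAA, the core letters recognised by Ikaros, was in 10 of the 47 (21.3%), in 28.3% of all genes and in 26.1% of those past the filter. In the window from 100 bases before the start, its shares were 12.8% of the members and 13.1% of genes past the filter. CCAAT, read by NF-Y, was in 22 (46.8%, against 41.1% of all genes and 43.5% of those past the filter). The E2F letters TTTGGCGC were in 0 (against 0.585% and 1.13% in the same order). Among the same 18 lower and 29 other members, TGGGAA was in 6 and 4, the Nrf1 palindrome in 3 and 2, and CCAAT in 7 and 15. None of these splits was tested. Both strands were searched, and matches of different motifs overlapped in 1 window, that of Nup93. These matches are letters in a window and do not show binding.

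The 250 bases before the start are shown for the 4 genes at least 2-fold lower that hold an E-box there, with capitals marking CACGTG and, in Ran, also the Nrf1 palindrome. Each is written 5′ to 3′ on the gene's own strand: Ran at chr5:129019906-129020155 (plus), Ipo7 at chr7:110018065-110018314 (plus), Xpot at chr10:121626333-121626582 (minus) and Nup188 at chr2:30286166-30286415 (plus).
Ran: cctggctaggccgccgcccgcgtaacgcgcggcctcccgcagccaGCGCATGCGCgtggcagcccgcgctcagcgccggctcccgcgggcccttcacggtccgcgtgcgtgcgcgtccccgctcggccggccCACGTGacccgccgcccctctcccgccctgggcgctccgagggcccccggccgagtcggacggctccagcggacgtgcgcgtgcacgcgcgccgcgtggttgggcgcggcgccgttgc
Ipo7: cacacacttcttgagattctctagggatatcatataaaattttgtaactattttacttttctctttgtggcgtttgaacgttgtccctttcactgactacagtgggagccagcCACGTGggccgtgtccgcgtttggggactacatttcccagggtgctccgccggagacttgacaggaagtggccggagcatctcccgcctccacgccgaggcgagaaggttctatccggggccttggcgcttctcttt
Xpot: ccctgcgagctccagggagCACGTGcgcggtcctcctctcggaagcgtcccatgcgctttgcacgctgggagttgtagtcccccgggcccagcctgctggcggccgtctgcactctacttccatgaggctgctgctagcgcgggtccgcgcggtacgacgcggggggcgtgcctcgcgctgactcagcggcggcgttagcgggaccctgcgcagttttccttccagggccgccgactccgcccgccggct
Nup188: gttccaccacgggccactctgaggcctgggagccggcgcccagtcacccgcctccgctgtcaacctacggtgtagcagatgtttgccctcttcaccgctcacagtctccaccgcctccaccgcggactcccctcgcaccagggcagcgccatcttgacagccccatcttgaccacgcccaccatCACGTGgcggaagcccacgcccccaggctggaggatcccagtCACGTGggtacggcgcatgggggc
The E-box begins 118 bases before the start in Ran, 137 in Ipo7 and 231 in Xpot, and Nup188 holds a pair, 66 and 24 bases before its start. In Ipo4, the lowest member, the E-box lies 15 bases after the start and is not shown. The other holders are Nup93, Nup54, Tnpo2 and Ranbp2, with log2 folds of -0.96, -0.91, -0.34 and -0.29.

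Other genes of the pathway, outside the set, were nearer to 0 on the whole. Past the filter were 67 such genes: 3 lower by 2-fold or more (background 13.0%), 3 higher by that much (background 13.6%), and a median log2 fold of -0.29, against -0.01 over all genes. None of the 22 genes of messenger RNA export reached 2-fold in either direction (median -0.30), and the same backgrounds apply to this and the lists that follow. Ddx39a and Ddx39b, helicases that load export factors, had log2 folds of -0.94 and -0.89, and Nupl2, a pore protein of the cytoplasmic face, -0.88. The receptor itself, Nxf1, had 3409 counts in the Dox library and 3807 in the untreated library (log2 fold -0.10). Adaptors that work with members of the set were lower: Nmd3, which links the large ribosomal subunit to Xpo1, had 782 counts in the Dox library and 1819 in the untreated library (log2 fold -1.16). Heatr3, known from yeast as a co-importer of ribosomal proteins, had 724 counts in the Dox library and 1976 in the untreated library (log2 fold -1.39), and Snupn, the import adaptor of spliceosomal RNA particles, had -0.76. All 7 genes past the filter in that list of adaptors and cap-binding genes had a log2 fold below 0 (background 50.7%), with a median of -0.59.

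Among further Ran-binding genes, Rangrf, a small Ran-binding protein, had 28 counts in the Dox library and 154 in the untreated library (log2 fold -2.32, interval -3.04 to -1.81). Ranbp10 had 3304 counts in the Dox library and 1227 in the untreated library (log2 fold 1.49), and Ranbp9 had 0.59. In the list of pore assembly and SUMO partners, 0 of 11 reached 2-fold (median -0.44). Ahctf1, whose product seeds pores on chromatin after mitosis, had a log2 fold of -0.75, Mad2l1 -0.60 and Senp1 -0.58. Nuclear envelope and lamina genes had a median of 0.39, and of 15 genes 2 were higher by 2-fold or more, a share near the background of 13.6%, and 0 lower (background 13.0%). Sun2, which links the envelope to the cytoskeleton, had 10088 counts in the Dox library and 4311 in the untreated library (log2 fold 1.29, interval 1.23 to 1.34), and Syne2, its partner, 86 and 26 in the same order (1.71). Lmnb2, a B-type lamin, had -0.95. Genes listed as Ran-regulated spindle factors stayed within 2-fold in 8 of 8 cases (median -0.34), with Aurka at -0.83, Kif15 at -0.60 and Tpx2 at -0.36.

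**Figure D5:**
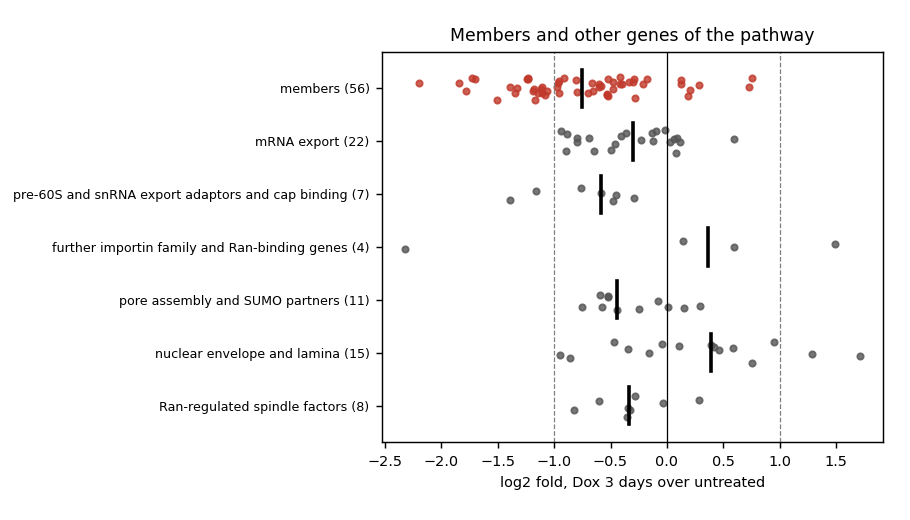
Log2 fold of the Dox over the untreated library for the 56 members (red) and the other pathway lists (grey), 1 point per gene, with the number of genes in brackets, the median as a black bar and dashed lines at 2-fold. The members' median is -0.75. Medians of the other lists run from -0.59 for the list of adaptors and cap-binding genes to 0.39 for envelope and lamina genes.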

How the data were processed

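RNA of FACS-sorted ALL211 cells was sequenced, 1 library of Dox-treated and 1 of untreated mice. The deposited values are raw counts of reads per Entrez gene with a gene length column. Per the submitters' processing notes, the authors used CASAVA 1.8.2 and featureCounts on the mm10 build; the aligner, annotation, strand setting and treatment of reads with several matches are not stated there. Without a strand setting, overlapping genes cannot be told apart. The sample tables held the same counts as the series table (0 of 27179 genes differed in either library).

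Symbols came from the RefSeq table of GRCm38.p6 (25275 genes matched; 1904 without one stayed in the totals). Counts were scaled with TMM factors (0.994 for the Dox library and 1.01 for the untreated library; edgeR 4.0.16, R 4.3.3), and the 12125 genes that reached 1 CPM in either library were kept. Log2 folds use a prior count of 2; intervals are Clopper-Pearson 95% intervals of the conditional binomial ratio. A floor of 3 counts equals 0.183 CPM in the Dox library and 0.176 CPM in the untreated library. TPM was computed from the counts and the deposited gene lengths. With 1 library per condition no test was possible. Transcripts were matched to GENCODE M21 with BLAST 2.17.0 (at least 97% identity over 100 bases). Python 3.11.15, pandas 2.3.3, scipy 1.17.1, statsmodels 0.14.6 and matplotlib 3.10.9 were used, and the steps were tested on simulated counts.

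Members, role classes and lists were chosen with earlier results of these data known. The values of 1 marker list are not reported here. Values are given for Ran, Rcc1, Rangap1, Ranbp1, Kpnb1, Kpna2, Xpo1, Cse1l, Ipo4, Nup210, Ikzf1 and Myc always, for the 2 lowest, the 2 highest and the most abundant member per length of each class, and for the 3 largest differences of each other list; genes beyond this, among them Nxf1, Nupl1, Nsun5 and Nutf2-ps1, were chosen after their values were seen. Alternatives were other scalings (total count, upper quartile, DESeq2 1.42.0 size factors), prior counts of 0.5 and 5, filters of 1 count and 5 CPM, thinning of the deeper library, library sizes computed after dropping 196 haemoglobin, ribosomal and mitochondrial genes, or 43 marker genes of non-T cells, a threshold of 1.5-fold, calls made on the interval's bound, removal of trends with length or level, and leaving out members with copies.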

Additional observations from a re-analysis of the deposited data

How the results depend on the processing

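The count of members at least 2-fold lower, 21, stayed between 18 and 23 under every alternative that kept the 2-fold threshold, and 0 were at least 2-fold higher under each of these; at 1.5-fold the counts were 33 lower and 2 higher. The members' median log2 fold ran from -0.87 to -0.70. Of 775 member values under the alternatives, 749 stayed inside the main counting interval, 25 left it and 1 changed sign. Filters of 1 count and 5 CPM (56 and 55 values) and leaving out members (53 and 51 values) do not change a gene's fold. Those values could not leave the interval. The 26 exceptions all came with removal of the gene length trend. That removal gave medians of -1.07 for importin beta-type receptors (-0.95 without the removal), -1.11 for exportins (-0.81), -1.20 for the inner ring (-1.06), -0.72 for the membrane ring (-0.60), -0.31 for the basket (-0.21) and -0.99 for the soluble carriers as a whole (-0.75), and put Nup210 at -0.029 (0.13) and Ikzf1 at 3.24 (3.35). The cause was not tested. A filter of 5 CPM, which removes Nup210l, gave a membrane ring median of -0.78. Leaving out members with a named pseudogene, or members matching another gene over 50% of their transcript (an alternative chosen after seeing the data), gave an importin alpha median of -0.023 in each case, against -0.17, through the loss of Kpna2. The second also gave medians of -0.74 for importin beta-type receptors without Ipo4 and -1.24 for the channel, which is then Nup62 alone. In a promoter window starting 100 bases before the start, CACGTG was in 8.51% of members with a window, against 5.003% of all genes and 7.64% of those past the filter. No paired analysis was possible because each condition has 1 library, and for the same reason no replicate could be left out. Depth limits little here except for Nup210l, Nutf2 and Nup35, whose counts are low.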

Other observations

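Across the 56 detected members, the log2 fold went with gene length and level: Spearman's rho was 0.40 with log2 gene length and -0.38 with log2 TPM in the untreated library. Across all 12125 genes past the filter the same values were 0.14 and -0.26. Genes within a library share its depth and composition, the level in the untreated library is itself part of the fold, and genes are not independent replicates, so these are descriptions only.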
